A study of Mus musculus with 16 samples.

Results

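The 10 genes described here encode costimulatory receptors of T cells, receptors and ligands of the tumour necrosis factor (TNF) families, and the adhesion receptor CD44. They are Cd28, Icos, Cd27, Cd70, Cd40lg, Tnfrsf4, Tnfrsf9, Tnfrsf18, Tnfrsf1b and Cd44. They were taken by symbol from a table of 55335 genes. The rule sets no threshold on their values, but the list was drawn up with earlier results of these data known. All 10 passed the filter on low counts and were among the 15197 genes tested. The study measured poly-A RNA by sequencing in CD8 T cells, the killer lymphocytes, from C57BL/6 mouse spleen. Its 4 groups were wild-type cells at 48 h, Batf3 -/- cells (called ko) at 48 h, wild-type cells at 72 h and ko cells at 72 h of culture, with 4 libraries in each. Splenocytes of all 4 groups underwent CD8 enrichment before culture in 50 ng/ml IL-15 with 1 µg/ml plate-bound antibodies against CD3 and CD28, so the receptor encoded by Cd28 was itself engaged in every culture. The series text describes the 4 libraries of a condition as technical replicates, so p-values here reflect variation among libraries and may not reflect variation among mice. No source used here gives the age of the mice, their number, or how the Batf3 allele was made.

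A T cell that meets antigen receives a signal through its antigen receptor and a further signal through costimulatory receptors. CD28 and ICOS belong to the immunoglobulin superfamily and signal through phosphoinositide 3-kinase, whereas OX40 (Tnfrsf4), 4-1BB (Tnfrsf9), GITR (Tnfrsf18), CD27 and TNF receptor 2 (Tnfrsf1b) belong to the TNF receptor superfamily and signal through TRAF adaptor proteins to NF-kB. CD27 and CD28 are carried by resting T cells, while 4-1BB, OX40 and GITR are known as receptors that activated CD8 T cells acquire, and they sustain survival and division. Batf3 encodes a leucine zipper protein that binds DNA together with other AP-1 factors.

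Each library held 29375818 to 39241169 counted reads. Levels are given as CPM, reads of the gene scaled to a common total of counted reads per library, and 3 reads, the limit that a count of 0 allows, amounted to 0.0765 to 0.102 CPM. Wild-type libraries held Batf3 at 80.7 ± 5.86 CPM at 48 h and 30.9 ± 2.65 CPM at 72 h (SD, n = 4 each), against 0 to 7 reads in 7 of the 8 ko libraries and 11 reads in the other. The CD8 T cell markers summed to 2168 to 2261 CPM in wild-type and 2307 to 2456 CPM in ko cells at 48 h. At 72 h they summed to 2638 to 2743 and 2805 to 2909 CPM, so that no groups overlapped. Of these 7 markers 2 were called higher in ko cells at 72 h and 0 lower. They were Cd3g (log2 fold change 0.54, adjusted p = 4.9e-06, edgeR) and Cd3d (0.53, adjusted p = 7.2e-06, edgeR). The lists for helper and regulatory T cells held 2 genes each. Cd4 and Foxp3, which define those cells, stayed below 1 CPM in every library, while the other members rose with time, Zbtb7b from 20.4 ± 1.61 to 51.3 ± 3.12 CPM and Ikzf2 from 11.0 ± 1.07 to 44.4 ± 5.68 CPM in wild-type cells (SD, n = 4 each). Also below 1 CPM in every library were 6 of 7 B cell markers, 7 of 8 macrophage, monocyte and granulocyte markers and 4 of 6 dendritic cell markers. The sum of the dendritic cell list, most of it H2-Ab1, was 69.4 to 86.5 CPM in wild-type and 105 to 122 CPM in ko cells at 72 h, while Clec9a was at 0 in every library. The macrophage, monocyte and granulocyte list, most of it Cd68, summed to 5.86 to 7.22 CPM in wild-type and 8.18 to 12.0 CPM in ko cells at 72 h, with Adgre1, S100a8 and S100a9 at 0 in every library. The natural killer and gamma delta T cell list summed to 10.3 to 12.3 CPM in wild-type and 13.8 to 15.2 CPM in ko cells at 72 h. All of these sums had risen from 48 h. The dendritic cell list then had 12.8 to 15.9 CPM in wild-type and 15.9 to 18.4 in ko cells. The macrophage, monocyte and granulocyte list had 1.30 to 1.99 and 1.02 to 2.34 CPM. The natural killer and gamma delta T cell list had 4.61 to 4.82 and 5.66 to 7.38 CPM. The part of these cells in the differences below was not tested. The fourth ko library at 48 h and the fourth wild-type library at 72 h stood apart from their groups, at a root mean square distance of 0.234 and 0.218 on the log2 scale over 9191 genes, against 0.109 to 0.163 for the other 14 libraries. Longer genes tended to be lower in ko cells, with a Spearman correlation of log2 fold change with exon length across 9284 genes of -0.398 at 48 h and -0.348 at 72 h. Calls that changed without both of these libraries, or with this trend removed, are given beside the genes they concern.

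**Figure D1:**
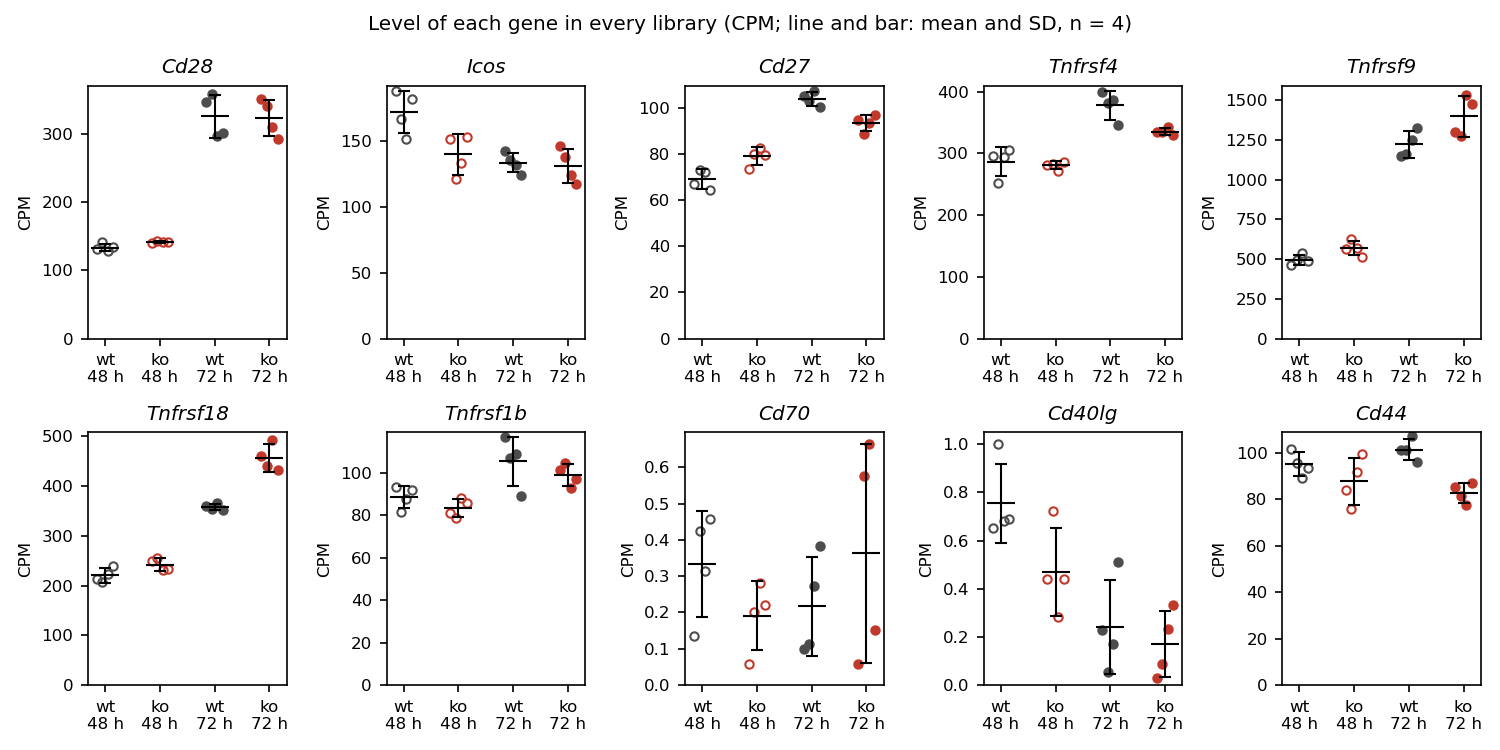
Level of each of the 10 genes in CPM (y axis, from 0) in each of the 16 libraries, by genotype and time (x axis). Points are libraries, open at 48 h and filled at 72 h, grey for wild type and red for ko, and the line and bar are the mean and SD of 4. Tnfrsf9 is the most abundant, and Cd70 and Cd40lg lie near or below 1 CPM throughout.

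The 10 genes ranged from a few reads per library, for Cd70 and Cd40lg, to 1399 ± 129 CPM (SD, n = 4) for Tnfrsf9 in ko cells at 72 h. Compared per kilobase of exon, the TNF receptor genes Tnfrsf4, Tnfrsf9 and Tnfrsf18 led in every group, while Cd27 and Tnfrsf1b of the same family ranked lower. The length used was that of all annotated exons of a gene merged. The length of the transcripts in use was not measured, and the order rests on the length taken. In wild-type cells at 48 h Tnfrsf4 had 210.0 and Tnfrsf9 182 CPM per kb, and these levels overlapped between libraries. Tnfrsf18 followed at 144 CPM per kb, then Icos at 50.1, Cd27 at 29.7, Tnfrsf1b at 23.2, Cd28 at 21.8 and Cd44 at 14.03. Of these neighbours in the order, Tnfrsf1b and Cd28 did not separate beyond the spread of their libraries. Cd40lg at 0.605 and Cd70 at 0.396 CPM per kb came last and overlapped. In ko cells at 48 h the order differed only between neighbours that overlapped, with Tnfrsf9 at 209 ahead of Tnfrsf4 at 205 CPM per kb and Cd28 at 23.1 ahead of Tnfrsf1b at 21.8. Icos at 40.7 and Cd27 at 33.9 CPM per kb also overlapped there. By 72 h Tnfrsf9 stood alone at the top, at 449 CPM per kb in wild-type and 514 in ko cells. Wild-type cells then had Tnfrsf4 (277) above Tnfrsf18 (234 CPM per kb), and ko cells had Tnfrsf18 (299) above Tnfrsf4 (246), with no overlap of libraries in either case. Cd28 had moved up to the fourth place, at 53.2 CPM per kb in wild-type and 52.9 in ko cells.

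Few of the 10 genes differed between ko and wild-type cells, while most of them changed from 48 h to 72 h. Fewer cells that carry a transcript and less of it per cell cannot be told apart in these bulk libraries. A gene is called changed where edgeR's quasi-likelihood test gave an adjusted p below 0.05 over all genes tested. In ko against wild-type cells at 48 h, 1 of 10 genes was higher, Cd27, where 4.41% of all genes were called higher, and 1 was lower, Icos, where 2.66% were called lower. At 72 h 2 of 10 were higher, Tnfrsf18 and Tnfrsf9, beside 16.9% of all genes, and 1 was lower, Cd44, beside 19.5%. From 48 h to 72 h in wild-type cells 6 of 10 rose, beside 33.6% of all genes, and 2 fell, beside 29.9%. In ko cells 6 rose, beside 34.4%, and 1 fell, beside 33.6%. The interaction asks whether the genotype difference at 72 h is unlike that at 48 h. There 1 of 10 had a more positive effect at 72 h, Tnfrsf18, beside 2.08% of all genes. The count with a more negative effect was 0 in edgeR, beside 3.53% of all genes, with 1 (Cd27) at an unadjusted p below 0.05 and by DESeq2 and 0 by limma-voom. The median log2 fold change of the 10 genes in ko against wild-type cells was -0.02 at 48 h and 0.07 at 72 h, where the median of all genes tested was 0.01 and -0.02. Read against these shares of all genes, the genotype counts do not set the 10 genes apart. Nor is the contrast between genotype and time particular to them, since most of all genes tested were also called over time. The 6 of 10 that rose were not tested against the shares of 33.6% and 34.4%.

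**Figure D2:**
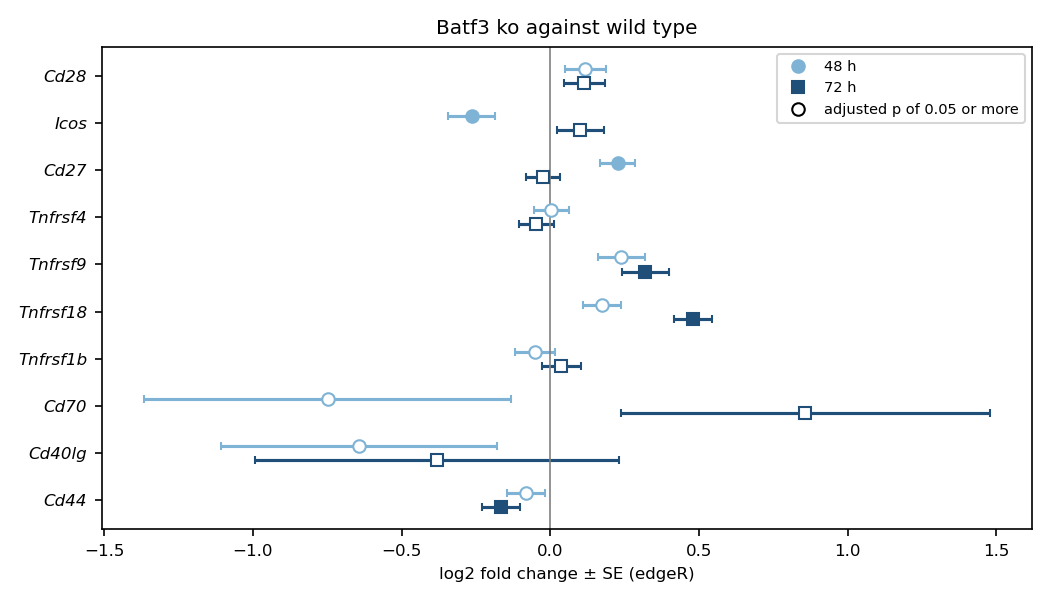
Log2 fold change of ko against wild type (x axis, edgeR, bars are SE) for the 10 genes (y axis) at 48 h (circles) and 72 h (squares). Filled symbols had an adjusted p below 0.05, namely Icos and Cd27 at 48 h and Tnfrsf9, Tnfrsf18 and Cd44 at 72 h.

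Cd28 and Icos encode related receptors and lie on chromosome 1, Cd28 (ENSMUSG00000026012) from 60716800 to 60773359 and Icos (ENSMUSG00000026009) from 60977927 to 61000320 in GRCm38, on the + strand and 204.6 kb apart with Ctla4 between them. CD28 binds CD80 and CD86, and ICOS binds ICOS ligand. Cd28 rose with time in both genotypes. Its level at 48 h was 131, 141, 129 and 134 CPM in the wild-type libraries and 140.4, 143, 141 and 141 in the ko libraries. At 72 h it was 347, 359, 296 and 302 CPM in wild-type and 351, 340.4, 310.4 and 293 in ko libraries. Every library at 72 h was above every library at 48 h, and the genotypes overlapped at both times. The log2 fold change with time was 1.26 (SE 0.07) in each genotype (adjusted p = 8.9e-14 in wild-type and 5.2e-14 in ko cells, edgeR). Between genotypes Cd28 had a log2 fold change of 0.12 (SE 0.07, adjusted p = 0.324) at 48 h and 0.12 (SE 0.07, adjusted p = 0.196) at 72 h in edgeR, and it passed under none of the 26 alternatives at either time.

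Icos was lower in ko cells at 48 h, at a time when wild-type cells had their highest level. The wild-type libraries had 187, 166, 152 and 182 CPM and the ko libraries 151, 121, 133 and 153, with an overlap limited to the lowest wild-type library and the highest ko library. The ko to wild-type difference was -0.26 on the log2 scale (SE 0.08, adjusted p = 0.0420, edgeR). The call was lost in 8 of 26 alternatives, with an adjusted p of 0.0591 when only the 2 groups at 48 h were fitted and of 0.0520 to 0.157 without any 1 of wild-type libraries 1, 2 and 4 or ko libraries 2 and 3 at 48 h, or library 2 of either genotype at 72 h. At 72 h Icos had 133 ± 7.40 CPM (SD, n = 4) in wild-type and 131 ± 12.9 (SD, n = 4) in ko cells, which overlapped (log2 fold change 0.10, SE 0.08, adjusted p = 0.336, edgeR). In wild-type cells it fell with time by 0.39 on the log2 scale (SE 0.08, adjusted p = 0.000141, edgeR), and every library at 72 h was below every library at 48 h. In ko cells the difference with time was -0.02 (SE 0.08, adjusted p = 0.802, edgeR). The test of the difference between these responses gave 0.37 (SE 0.11, adjusted p = 0.0539, edgeR) and passed in 8 of 25 alternatives. Within a library, the reads of Cd28 per read of Icos went from 0.698 to 0.848 in wild-type and 0.922 to 1.18 in ko cells at 48 h to 2.25 to 2.65 and 2.41 to 2.50 at 72 h.

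**Figure D3:**
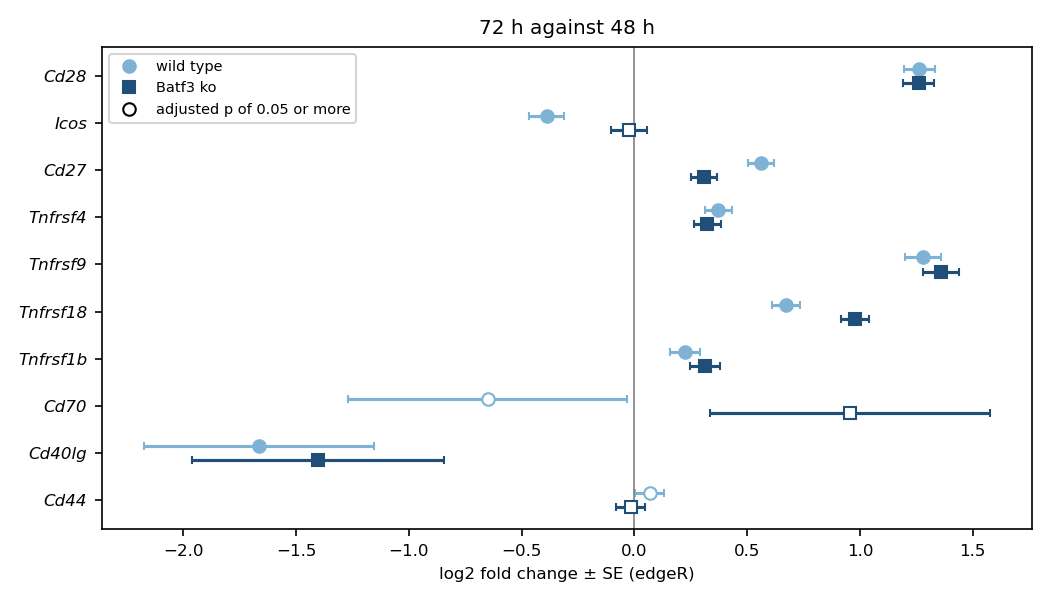
Log2 fold change from 48 h to 72 h (x axis, edgeR, bars are SE) for the 10 genes (y axis) in wild-type (circles) and ko cells (squares). Filled symbols had an adjusted p below 0.05; Cd28 and Tnfrsf9 have the largest rises, and Icos is filled in wild-type cells only.

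The TNF receptor genes Tnfrsf1b, Tnfrsf9, Tnfrsf4 and Tnfrsf18 all lie on chromosome 4. Tnfrsf9 (ENSMUSG00000028965, from 150914562 to 150946102, + strand) encodes 4-1BB, a receptor best known on activated CD8 T cells, where it promotes survival. Tnfrsf18 (ENSMUSG00000041954, from 156026164 to 156028895, + strand) encodes GITR. These were the 2 genes of the 10 that were higher in ko cells at 72 h. A promoter window of each is printed because AP-1 factors, the group that Batf3 belongs to, and NF-kB factors are known to act at genes of this family. RefSeq (GRCm38.p6) gave a window of 250 bases before to 50 bases after a start site for 6 of the 10 genes, with 7 windows in all since Tnfrsf9 had 2. The Tnfrsf9 window at chr4:150919905-150920204 held no motif match and is not printed. Printed are the other Tnfrsf9 window, at chr4:150927749-150928048, and the Tnfrsf18 window at chr4:156026072-156026371, both on the + strand, with motif matches in capitals.
Tnfrsf9: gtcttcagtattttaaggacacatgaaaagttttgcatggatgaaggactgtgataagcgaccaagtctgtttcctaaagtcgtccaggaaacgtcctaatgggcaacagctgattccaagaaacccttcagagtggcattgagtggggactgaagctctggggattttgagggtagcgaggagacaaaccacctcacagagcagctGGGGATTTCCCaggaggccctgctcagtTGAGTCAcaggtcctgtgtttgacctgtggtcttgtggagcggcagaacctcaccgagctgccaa
Tnfrsf18: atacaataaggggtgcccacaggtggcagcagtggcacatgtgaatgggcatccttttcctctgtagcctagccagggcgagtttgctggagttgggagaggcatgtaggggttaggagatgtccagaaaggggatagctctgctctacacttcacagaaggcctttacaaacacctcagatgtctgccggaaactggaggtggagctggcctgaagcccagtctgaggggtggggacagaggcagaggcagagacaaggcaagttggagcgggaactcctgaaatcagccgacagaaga
The AP-1 motif searched was TGANTCA, and the NF-kB motif was the consensus of that name, each on both strands. The printed Tnfrsf9 window held TGAGTCA, beginning at position -15 from its start site, and 2 overlapping NF-kB matches, GGGGATTTCC beginning at -43 and GGGATTTCCC at -42. The other 6 windows, among them the Tnfrsf18 window and the Tnfrsf9 window that is not printed, held no match to either. Of 32851 RefSeq promoter windows of 300 bases, 7.81% held the AP-1 motif and 8.46% the NF-kB motif. A match describes these letters only and does not show that a factor bound there.

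Tnfrsf9 rose most with time together with Cd28, and was higher in ko than in wild-type cells at 72 h. Its level at 48 h was 463, 491, 541 and 486 CPM in the wild-type libraries and 564, 627, 572 and 516 in the ko libraries, where 1 ko library lay within the wild-type range. At 72 h it was 1150.2, 1164, 1251 and 1329 CPM in wild-type and 1304, 1276, 1537 and 1480.0 in ko libraries. The genotypes thus overlapped at 72 h in CPM by total reads, with the fourth wild-type library, which stood apart, above 2 of the ko libraries. With the TMM scaling that the test uses they did not overlap, at 1099 to 1316 CPM in wild-type and 1332 to 1633 in ko libraries. On the log2 scale the difference was 0.32 (SE 0.08, adjusted p = 0.0026, edgeR) at 72 h, a 1.25-fold difference, and the call held in 26 of 26 alternatives (0.19 to 0.38). At 48 h it was 0.24 (SE 0.08, adjusted p = 0.0658, edgeR). That difference passed in 5 of 26 alternatives only (0.17 to 0.30). Among these, without the fourth ko library at 48 h it was 0.30 with an adjusted p of 0.00966 in edgeR, and without both libraries that stood apart 0.30 with an adjusted p of 0.00219. The rise with time was 1.28 (SE 0.08) in wild-type and 1.36 (SE 0.08) in ko cells on the log2 scale, and the interaction was 0.08 (SE 0.11, adjusted p = 0.742, edgeR).

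Tnfrsf18 had the best-separated difference between genotypes at 72 h. At 48 h it had 212, 206, 224 and 239 CPM in the wild-type libraries and 250.1, 255, 230.4 and 233 in the ko libraries, which overlapped. At 72 h it had 359, 353, 365 and 351 CPM in wild-type and 459.9, 441, 493 and 431 in ko libraries. Every ko library at 72 h was above every wild-type library, by at least the gap between 365 and 431 CPM. This difference was 0.48 on the log2 scale (SE 0.06, adjusted p = 3.2e-06, edgeR), a 1.40-fold difference, and it passed in 26 of 26 alternatives (0.31 to 0.51), with the lowest value where the trend with exon length was removed. At 48 h the genotypes differed by 0.17 (SE 0.06, adjusted p = 0.0914, edgeR), which passed in 2 of 26 alternatives only (0.10 to 0.22). Those 2 were the edgeR fits without the fourth ko library at 48 h (0.21, adjusted p = 0.0297) and without both libraries that stood apart (0.21, adjusted p = 0.0169). With time Tnfrsf18 rose by 0.67 (SE 0.06) on the log2 scale in wild-type and by 0.98 (SE 0.06) in ko cells. The difference of these rises, 0.31 (SE 0.09, adjusted p = 0.0422, edgeR), passed the threshold in 10 of 25 alternatives only. It was lost without any 1 of 11 of the 16 libraries (0.26 to 0.33, adjusted p = 0.0525 to 0.110), under library-size scaling, with no filter on low counts, and with the exon length trend removed (0.22, adjusted p = 0.0692). The antisense gene Gm16008 shares 414 exon bases with Tnfrsf18 and had 0.400 to 1.70 CPM, and whether the counting used strand is not given in the sources used here.

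Tnfrsf4 (ENSMUSG00000029075, from 156013843 to 156016612, + strand), which encodes OX40, lies 9.6 kb upstream of Tnfrsf18 with no protein-coding gene between them. The genotype difference of Tnfrsf4 at 48 h was near 0, and it did not share the higher level of Tnfrsf18 in ko cells at 72 h. It had 287 ± 23.7 CPM (SD, n = 4) in wild-type and 280.4 ± 6.55 (SD, n = 4) in ko cells at 48 h. At 72 h it had 400.1, 381, 386 and 345 CPM in wild-type and 335, 334, 343 and 329.9 in ko libraries, so that each ko library was below each wild-type library by total reads. With TMM scaling the genotypes overlapped, at 342 to 382 CPM in wild-type and 346 to 364 in ko libraries. The fitted difference of ko from wild type was -0.05 on the log2 scale (SE 0.06, adjusted p = 0.583, edgeR), and it passed as lower under library-size scaling (-0.17, adjusted p = 0.0220) and with the exon length trend removed (-0.23, adjusted p = 0.00358). Library-size scaling moved the median of all genes at 72 h from -0.02 to -0.14, and the TMM factors ran from 0.941 to 0.959 in ko and from 1.01 to 1.07 in wild-type libraries. Tnfrsf4 rose with time by 0.37 (SE 0.06) in wild-type and 0.32 (SE 0.06) in ko cells on the log2 scale. A ratio of the neighbours within each library does not depend on scaling. There were 0.720 to 0.818 reads of Tnfrsf18 per read of Tnfrsf4 in wild-type and 0.814 to 0.903 in ko libraries at 48 h, and 0.897 to 1.02 in wild-type and 1.31 to 1.44 in ko libraries at 72 h. This ratio was chosen after the values were seen and is given without a test; it shows that the genes of this pair changed unequally and not which of them changed.

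**Figure D4:**
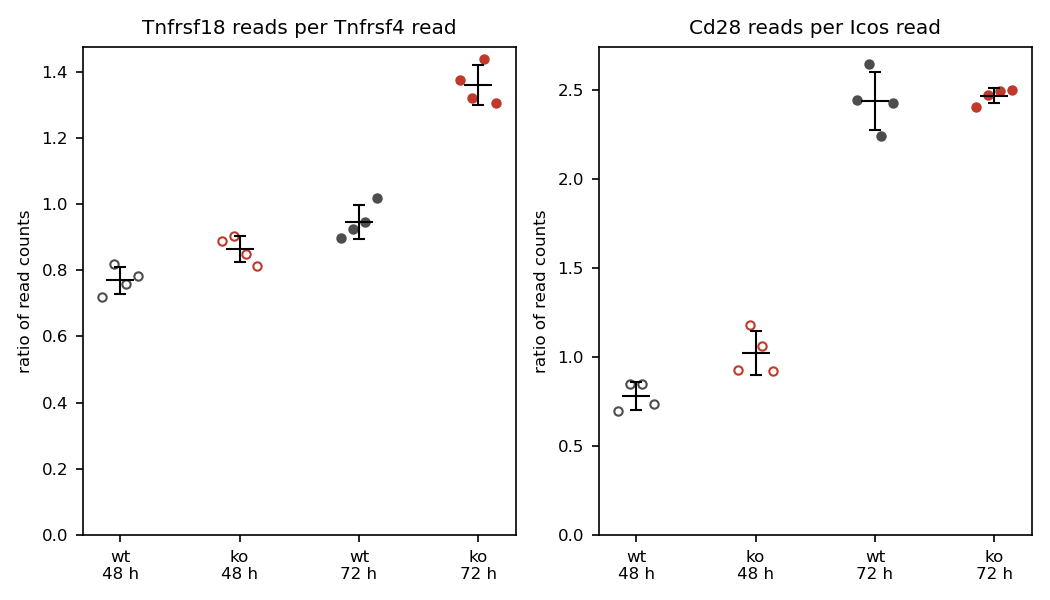
Ratio of read counts within each library (y axis, from 0) for 2 pairs of genes that lie near each other, Tnfrsf18 over Tnfrsf4 (left) and Cd28 over Icos (right), by genotype and time (x axis). Points are libraries, and the line and bar are the mean and SD of 4; the ko libraries at 72 h have 1.31 to 1.44 reads of Tnfrsf18 per read of Tnfrsf4, above the other 12 libraries.

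Cd27 (ENSMUSG00000030336, chromosome 6 from 125232622 to 125237010, - strand), the receptor for CD70, was higher in ko cells at 48 h and not at 72 h. It had 67.0, 73.1, 72.2 and 64.4 CPM in the wild-type libraries and 73.5, 80.2, 82.6 and 79.7 in the ko libraries at 48 h. The groups did not overlap, though the highest wild-type and the lowest ko library were close. Cd27 differed by 0.23 on the log2 scale (SE 0.06, adjusted p = 0.0175, edgeR). The call held in 21 of 26 alternatives and was lost without wild-type library 1 or 4 or ko library 2 at 48 h (adjusted p = 0.0761, 0.0747 and 0.102), with no filter on low counts (0.0508) and with the exon length trend removed (0.18, adjusted p = 0.0666). At 72 h Cd27 had 104 ± 3.0 CPM (SD, n = 4) in wild-type and 93.6 ± 3.45 (SD, n = 4) in ko cells, lower by total reads without overlap, but with TMM scaling the difference was -0.02 on the log2 scale (SE 0.06, adjusted p = 0.771, edgeR). Under library-size scaling it was -0.15 (adjusted p = 0.0415). Cd27 rose with time by 0.56 (SE 0.06) in wild-type and 0.31 (SE 0.06) in ko cells on the log2 scale, and the difference of the rises was -0.25 (SE 0.08, adjusted p = 0.0685, edgeR). That difference passed in 4 of 25 alternatives, which were library-size scaling (-0.34, adjusted p = 0.0114), DESeq2 (-0.24, adjusted p = 0.0358), the fit without both libraries that stood apart (-0.27, adjusted p = 0.0449) and the removal of the exon length trend (-0.30, adjusted p = 0.0248). Mir8113, which shares 129 exon bases with Cd27, had 0 reads in every library.

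Tnfrsf1b (ENSMUSG00000028599, chromosome 4 from 145213463 to 145246870, - strand) encodes TNF receptor 2, which carries no death domain and recruits TRAF2. Its level was 88.5 ± 5.25 CPM (SD, n = 4) in wild-type and 83.4 ± 4.25 (SD, n = 4) in ko cells at 48 h, and 105 ± 11.6 and 99.0 ± 5.05 CPM (SD, n = 4 each) at 72 h. The genotypes overlapped at both times, with log2 fold changes of -0.05 (SE 0.07, adjusted p = 0.708) and 0.04 (SE 0.07, adjusted p = 0.699) in edgeR. It rose with time by 0.22 (SE 0.07, adjusted p = 0.0052) in wild-type and 0.31 (SE 0.07, adjusted p = 0.000215) in ko cells on the log2 scale in edgeR. The fourth wild-type library at 72 h, at 89.2 CPM, lay within the range of the wild-type libraries at 48 h, and the other 3 at 72 h lay above it. The death receptor for the same ligand, Tnfrsf1a, had a log2 fold change of 0.21 (adjusted p = 0.108) at 48 h and 0.12 (adjusted p = 0.245) at 72 h in ko against wild-type cells in edgeR.

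The ligand genes Cd70 and Cd40lg were close to the limit of detection. Cd70 (ENSMUSG00000019489, chromosome 17 from 57145997 to 57149777, - strand) encodes the ligand of CD27. It had 5, 14, 12 and 18 reads in the wild-type and 2, 7, 11 and 7 in the ko libraries at 48 h, and 3, 4, 8 and 12 in the wild-type and 2, 20, 20 and 5 in the ko libraries at 72 h. In 3 of the 16 libraries there were no more than 3 reads, and all groups overlapped. Cd70 in ko against wild-type cells differed by -0.75 on the log2 scale (SE 0.62, adjusted p = 0.523) at 48 h and 0.86 (SE 0.62, adjusted p = 0.297) at 72 h in edgeR. Cd40lg (ENSMUSG00000031132, chromosome X from 57212143 to 57224042, + strand) encodes CD40 ligand, the signal by which T cells, above all CD4 T cells, activate B cells and dendritic cells through CD40. It had 24, 33, 26 and 27 reads in the wild-type and 15, 25, 11 and 14 in the ko libraries at 48 h, and 7, 2, 5 and 16 in the wild-type and 1, 3, 7 and 11 in the ko libraries at 72 h. With time Cd40lg fell by 1.66 in wild-type (SE 0.51, adjusted p = 0.00645) and by 1.40 in ko cells (SE 0.56, adjusted p = 0.0293) on the log2 scale in edgeR. The fall in ko cells was not called without ko library 2 at 48 h or ko library 1 or 2 at 72 h (-1.05 to -1.18, adjusted p = 0.0900 to 0.109). Between genotypes Cd40lg differed by -0.64 on the log2 scale (SE 0.46, adjusted p = 0.451) at 48 h and -0.38 (SE 0.61, adjusted p = 0.668) at 72 h in edgeR, and a difference of the size of these errors was not detectable at this depth.

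Cd44 (ENSMUSG00000005087, chromosome 2 from 102811141 to 102901665, - strand) encodes the receptor for hyaluronan that marks T cells which have met antigen. It was slightly lower in ko cells at 72 h, at 85.3, 81.6, 77.3 and 87.0 CPM against 101.3, 101.3, 107 and 95.9 in wild-type libraries, with no overlap. On the log2 scale this was -0.17 (SE 0.06, adjusted p = 0.0486, edgeR), just inside the threshold. The call held in 9 of 26 alternatives: it was lost without any 1 of 12 of the 16 libraries (adjusted p = 0.0513 to 0.185), under median-ratio scaling, with no filter on low counts, when only the groups at 72 h were fitted, and with the exon length trend removed (-0.11, adjusted p = 0.161). At 48 h Cd44 had 95.0 ± 5.22 CPM (SD, n = 4) in wild-type and 87.7 ± 10.1 (SD, n = 4) in ko cells, which overlapped (log2 fold change -0.08, SE 0.06, adjusted p = 0.501, edgeR). Its difference with time was 0.07 (SE 0.06, adjusted p = 0.375) in wild-type and -0.02 (SE 0.07, adjusted p = 0.833) in ko cells in edgeR. Counts per gene do not separate the splice variants of Cd44.

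Related genes were followed in 7 lists, in which up to 6 genes were named by the size of their adjusted p. The counts stand beside shares of all genes of 4.41% called higher and 2.66% lower at 48 h in ko cells, and at 72 h of 16.9% and 19.5%. Under library-size scaling, 1464 of the 15197 genes were higher and 4779 lower at 72 h. Of 23 other TNF receptor genes 17 were tested, of which 1 was called at 48 h, higher in ko cells, and 7 at 72 h, 5 higher and 2 lower. Library-size scaling left 3 higher and 2 lower there and moved the list median at 72 h from 0.12 to -0.0041. Tnfrsf26 was higher at 72 h, at 32.4 ± 7.26 against 17.3 ± 3.62 CPM (SD, n = 4 each), with a log2 fold change of 1.03 (SE 0.15, adjusted p = 2.3e-05, edgeR). Tnfrsf23 was higher by 1.31 (SE 0.26, adjusted p = 0.00037) from 1.33 ± 0.403 to 3.01 ± 1.20 CPM (SD, n = 4 each), and as Tnfrsf22, Tnfrsf23 and Tnfrsf26 are close relatives, their reads may be shared between them. Fas, the death receptor, was higher by 0.38 (SE 0.09) at 72 h, and Tnfrsf8, which encodes CD30, by 0.38 (SE 0.09) at 48 h and 0.28 (SE 0.09) at 72 h. The Tnfrsf8 call was lost at 48 h without wild-type library 2 (adjusted p = 0.0575). At 72 h it was lost under library-size scaling (0.16, adjusted p = 0.212) and without wild-type library 1 or 4 or ko library 2 (adjusted p = 0.0504, 0.0541 and 0.109). Tnfrsf13b, which encodes TACI and is best known in B cells, fell in ko cells relative to wild type at 72 h (-0.46, SE 0.09).

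A list of 16 other TNF superfamily ligands left out Cd70 and Cd40lg, which were not called at 72 h (adjusted p = 0.297 and 0.668, edgeR). Of the listed ligands 10 were tested. The 10 were all called at 72 h, 3 higher and 7 lower in ko cells, with Tnf nearest the threshold (-0.40, adjusted p = 0.0474, edgeR). At 48 h 3 of these 10 ligands were higher and 1 lower. Their median log2 fold change was -0.07 at 48 h and -0.45 at 72 h, where all genes had 0.01 and -0.02, and the split of 3 and 7 held under each scaling and without both libraries that stood apart, and was 3 and 6 in limma-voom. Tnfsf9, the ligand of 4-1BB, was higher at both times, like its receptor at 72 h. It had 2.67, 2.21, 1.76 and 1.73 CPM in wild-type and 4.92, 3.95, 4.37 and 5.18 in ko libraries at 48 h, without overlap. Between genotypes Tnfsf9 differed by 1.17 on the log2 scale (SE 0.18, adjusted p = 0.00016) at 48 h and by 1.14 (SE 0.17, adjusted p = 2.2e-05) at 72 h in edgeR. Ltb, which encodes lymphotoxin beta, was higher by 0.38 (SE 0.06) and 0.39 (SE 0.06) at the 2 times. Tnfsf8, the ligand of CD30, was lower at 72 h, at 10.5 ± 1.37 against 22.7 ± 0.626 CPM (SD, n = 4 each, log2 fold change -0.99, SE 0.11, adjusted p = 4.9e-07, edgeR). Tnfsf14, which encodes LIGHT, was lower at 72 h as well, at 10.2 ± 1.77 against 20.04 ± 1.56 CPM (SD, n = 4 each, log2 fold change -0.84, SE 0.10, adjusted p = 1.7e-06, edgeR). At 48 h Tnfsf8 had -0.33 (adjusted p = 0.069) and Tnfsf14 0.12 (adjusted p = 0.55). Tnfsf4, the ligand of OX40, was looked up because Tnfrsf4 is described here and was lower by 0.50 at 72 h on the log2 scale (-0.50, adjusted p = 0.0092, edgeR), while Tnfsf18, the ligand of GITR, had too few reads to be tested.

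**Figure D5:**
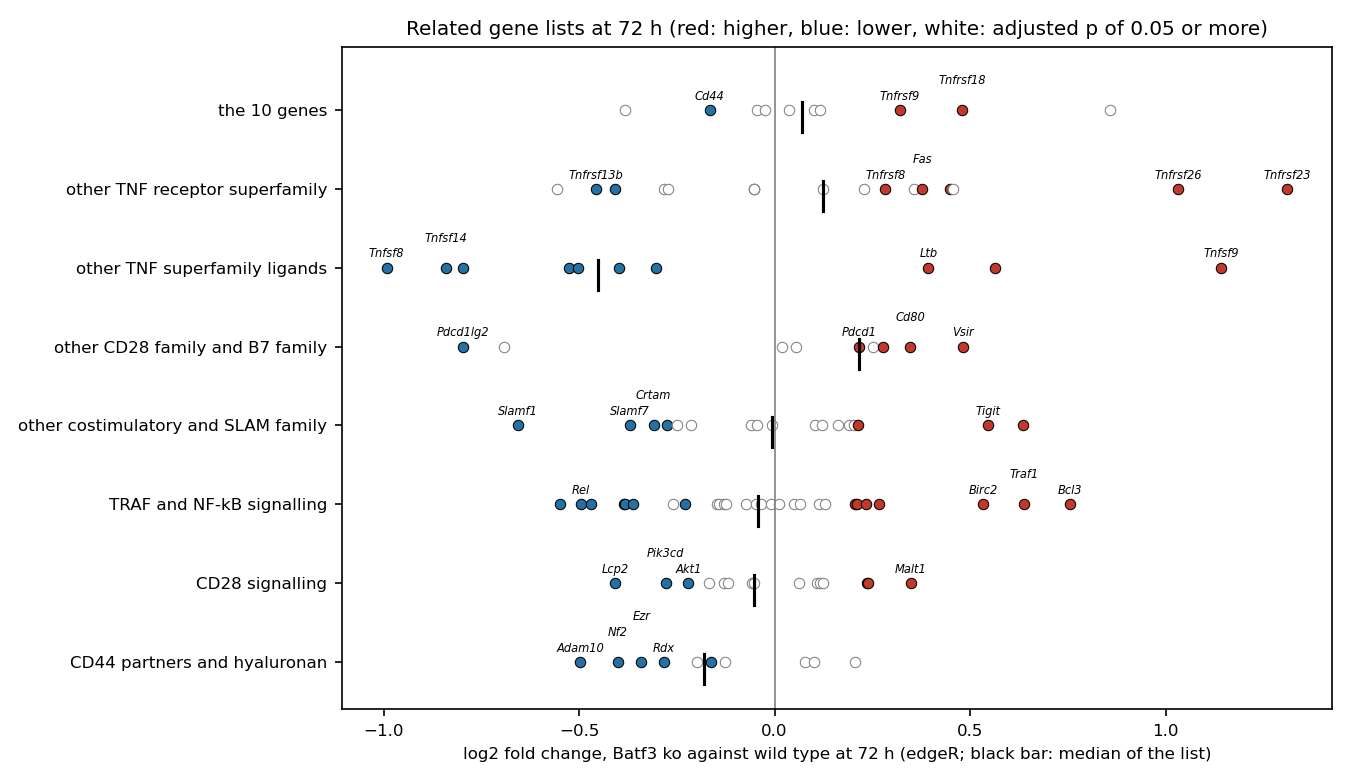
Log2 fold change of ko against wild type at 72 h (x axis, edgeR) of every tested gene in the 10 genes and in the 7 related lists (y axis). Red and blue points had an adjusted p below 0.05 and were higher or lower, and white points did not pass. Black bars are list medians, and the genes named in the text are labelled. The list of other TNF superfamily ligands holds no white point, while the ligands Cd70 and Cd40lg are white points among the 10 genes.

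Of the other genes of the CD28 and B7 families, 9 of 11 were tested. At 48 h 2 were called, both higher in ko cells, and at 72 h 4 were higher and 1 lower, or 2 and 2 under library-size scaling. Pdcd1, which encodes the inhibitory receptor PD-1, had log2 fold changes of 0.39 (SE 0.06) at 48 h and 0.22 (SE 0.06) at 72 h, and its call at 72 h was lost under library-size scaling (0.089, adjusted p = 0.331) and with the exon length trend removed (0.087, adjusted p = 0.362). Vsir, which encodes the inhibitory receptor VISTA, was higher by 0.41 (SE 0.06) and 0.48 (SE 0.06), and passed in 26 of 26 alternatives at each time. Pdcd1lg2, a ligand of PD-1, was lower at 72 h (-0.80, SE 0.14) and Cd80 higher (0.35, SE 0.08). Ctla4, which lies between Cd28 and Icos, had 0.20 (adjusted p = 0.29) at 48 h and 0.25 (adjusted p = 0.075) at 72 h in edgeR. Of other costimulatory and SLAM family genes, 17 of 18 were tested, with 1 higher and 3 lower at 48 h and 3 higher and 4 lower at 72 h (1 and 7 under library-size scaling). Slamf7 was lower at both times (-0.55, SE 0.07, and -0.37, SE 0.07), as was Slamf1 (-0.44, SE 0.11, and -0.66, SE 0.11), both self-binding receptors of the SLAM family. Tigit, an inhibitory receptor, was higher at 72 h, at 132 ± 9.75 against 98.4 ± 7.43 CPM (SD, n = 4 each, log2 fold change 0.55, SE 0.07, adjusted p = 4.6e-06, edgeR), and Crtam was lower there (-0.31, SE 0.07).

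Below the receptors, all 28 genes of TRAF and NF-kB signalling were tested. At 48 h 3 were called, all higher in ko cells, and without both libraries that stood apart 3 were higher and 4 lower. At 72 h 7 were higher and 7 lower and 14 did not pass, under library-size scaling 3 and 14, and without both libraries that stood apart 5 and 10. The list median was -0.02 at 48 h and -0.04 at 72 h. Traf1, an adaptor that joins 4-1BB and TNF receptor 2 complexes, had 104 ± 6.5 CPM in wild-type and 119 ± 11.1 in ko cells at 48 h and 179 ± 4.95 against 255 ± 14.5 at 72 h (SD, n = 4 each). Traf1 was thus higher by 0.22 on the log2 scale (SE 0.06, adjusted p = 0.026) and by 0.64 (SE 0.06, adjusted p = 4.3e-08) in edgeR. Its call at 48 h was lost under library-size scaling (adjusted p = 0.0742) and without wild-type library 1 or 2 or ko library 4 at 48 h (adjusted p = 0.0965, 0.108 and 0.0506). Bcl3, a nuclear partner of NF-kB subunits, was higher by 0.67 (SE 0.09) and 0.76 (SE 0.09), and Birc2, a ubiquitin ligase that TRAF2 recruits, by 0.27 (SE 0.08) and 0.53 (SE 0.08). For Birc2 the call at 48 h held in 17 of 26 alternatives only, and was lost in limma-voom (adjusted p = 0.0523), under library-size scaling (0.0561) and without any 1 of the 4 wild-type libraries or ko libraries 1 and 2 at 48 h (0.0628 to 0.181). Rel, the NF-kB subunit c-Rel, was lower at 72 h (-0.49, SE 0.07) and had -0.12 (adjusted p = 0.30) at 48 h. Of 15 genes of CD28 signalling 1 was called at 48 h, lower in ko cells, and at 72 h 3 were higher and 3 lower, or 1 and 7 under library-size scaling. Malt1, a protease on the route to NF-kB, was higher at 72 h (0.35, SE 0.05). Lcp2, the adaptor SLP-76, was lower (-0.41, SE 0.07, and -0.26, SE 0.07 at 48 h, a call lost without wild-type library 1 or ko library 1 or 2, with adjusted p of 0.0612, 0.0829 and 0.0536), as were Pik3cd, the delta catalytic subunit of phosphoinositide 3-kinase (-0.28, SE 0.07), and Akt1, a kinase that acts after it (-0.22, SE 0.06).

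Around CD44, 10 of 14 genes of its partners and of hyaluronan turnover were tested, with 1 higher and 1 lower at 48 h in ko cells. At 72 h 5 were called, all of them lower, where 19.5% of all genes were lower, and 4 to 7 under the other scalings, with exon length offsets and without both libraries that stood apart. The median log2 fold change of the list was -0.02 at 48 h and -0.18 at 72 h. Ezr and Rdx encode ezrin and radixin, which tie CD44 to the actin cytoskeleton, and were lower at 72 h by log2 fold changes of -0.34 (SE 0.06) and -0.28 (SE 0.06). Nf2, which encodes merlin, was lower at both times (-0.36, SE 0.06, and -0.40, SE 0.06). Adam10, a protease that sheds CD44 from the cell surface, had 109 ± 8.16 CPM in wild-type and 70.9 ± 1.28 in ko cells at 72 h (SD, n = 4 each, log2 fold change -0.50, SE 0.06, adjusted p = 2.1e-06, edgeR). Spp1, which encodes osteopontin, a ligand of CD44, was higher at 48 h (0.73, SE 0.15, adjusted p = 0.0047, edgeR) and had 0.08 (adjusted p = 0.69) at 72 h.

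The patterns most like the members were sought for the 3 with the largest fold change at 72 h, which were Cd70, Tnfrsf18 and Cd40lg. Likeness was the root mean square difference of centred log2 CPM over the 16 libraries. Tnfrsf18 was followed most closely by Pfdn5 (0.0760), Igbp1 (0.0766) and Unc119b (0.0801), of 8351 candidate genes, against a range of 1.37 on the log2 scale for Tnfrsf18 itself. For Cd40lg the closest were Nupl2, Tmem238 and Otud6b (0.596 to 0.611), and for Cd70 Pcbd2, Bloc1s5 and Eri2 (0.677 to 0.710). Cd40lg and Cd70 had at most 33 reads in a library. Among the 8 of the 10 genes with a mean log2 CPM of at least 3, which left out Cd70 and Cd40lg, the closest patterns were those of Tnfrsf4 and Tnfrsf1b (0.0888), and Cd28 was closest to Tnfrsf9 (0.184). Of all candidate genes, with the gene itself counted, 0.24% were closer to Tnfrsf4 than Tnfrsf1b was, and 0.56% closer to Tnfrsf1b than Tnfrsf4 was. Likewise 1.6% were closer to Cd28 than Tnfrsf9 was, and 1.2% closer to Tnfrsf9 than Cd28 was.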

How the data were processed

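Poly-A RNA of 16 libraries was sequenced, 4 for each genotype and time, from 100 ng of RNA per the labels' protocols. The authors deposited raw counts of reads for each gene as whole numbers; bcl2fastq 2.2.0, STAR 2.7, featureCounts and GRCm38 are named in the submitters' processing notes, while the strand setting is not given in the sources used here. Groups came from the labels. Symbols, positions and exon lengths came from GENCODE M21, which held 55154 of 55335 identifiers.

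All libraries were fitted together in edgeR 4.0.16 under R 4.3.3. Library sizes were scaled by TMM, filterByExpr kept genes at its minimum count of 10, and the quasi-likelihood F test was robust and two-sided. P-values were adjusted by Benjamini-Hochberg over 15197 genes, and each SE is the log2 fold change over the square root of F. The median coefficient of variation between libraries was 9.68%. No 2 libraries of a group agreed within sampling noise. Floors cover counting error only.

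The 10 genes, the lists and the naming rule were chosen with earlier results of these data known. The rule named all 10 genes, and per list up to 4 genes of smallest adjusted p at 72 h and up to 2 at 48 h; Tnfrsf1a, Ctla4 and Tnfsf4 were named in addition after their values were seen. 1 gene of the CD28 signalling list is not reported here. As alternatives, DESeq2 1.42.0 and limma-voom (limma 3.58.1) were run, as were edgeR fits with library-size or median-ratio scaling, no filter and a filter of 1 CPM in 4 libraries, only the groups compared, a replicate block and each library left out. A further 2 were added after seeing the data, a fit without both libraries that stood apart and exon length offsets (lowess, span 0.3).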

Additional observations from a re-analysis of the deposited data

Results flagged for a closer look

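Of 44 groups of 4 libraries whose spread was examined, 2 held a library far from the other 3, where chance flags about 1 group in 20. The wild-type libraries at 48 h had Cd40lg at 0.653, 0.681, 0.688 and, in the second library, 1.00 CPM, which is 33 reads. The ko libraries at 72 h had Batf3 at 0 reads in 3 libraries and 11 reads, 0.366 CPM, in the third. With 3 libraries at 0 reads, any reads in the remaining library raise the flag, so the chance rate does not apply to Batf3 there.

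The interaction test of edgeR separated the genotype difference at 72 h from that at 48 h for 11 genes named above. Of the 10 genes it was Tnfrsf18, whose log2 fold change of ko against wild type was more positive at 72 h than at 48 h by 0.31 (SE 0.09, adjusted p = 0.0422). That call held in 10 of 25 alternatives only. Of the related genes Tnfrsf26 (0.85), Tigit (0.38) and Traf1 (0.41) also had a more positive effect at 72 h. The effect was more negative at 72 h for Tnfrsf13b (-0.48), Tnfsf8 (-0.66), Tnfsf14 (-0.96), Crtam (-0.37), Rel (-0.37), Adam10 (-0.41) and Ezr (-0.35). Each of these related genes was named for its small adjusted p at 72 h, a choice that favours a larger difference at 72 h. Their number is therefore no measure of how often the genotype difference changed. Among all genes tested, 2.08% were called more positive at 72 h and 3.53% more negative.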

How the results depend on the processing

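Over 1273 values of the 10 genes under the alternatives, 1160 kept their direction and side of the threshold, as did 1069 of 1092 for the named related genes. Of 2 genes called at 48 h, 4 were called without both libraries that stood apart and 1 with exon length offsets or in a fit of only the groups compared, and 0 to 4 when 1 library was left out. Of 3 at 72 h, 5 were called under library-size scaling and 2 to 3 with 1 library left out. In the interaction, where 1 was called, median-ratio scaling gave 2, DESeq2 3 and the fit without both libraries 2, and leaving out 1 library gave 0 to 2. The time counts stayed at 8 in wild-type and 6 to 7 in ko cells, with 7 and 6 at the filter of 1 CPM, which drops Cd70 and Cd40lg. The causes were not tested. Same-numbered libraries deviated together with correlations from -0.26 to 0.28. No pairing is stated in the sources used here, and these correlations cannot settle whether the numbers pair the libraries. The replicate block gave 2 genes at 48 h, 2 at 72 h (Cd44 not) and 1 in the interaction (Icos in place of Tnfrsf18).

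Reversals concerned genes that were not called. Tnfrsf4 at 48 h was -0.012 under median-ratio scaling and DESeq2, -0.032 under library-size scaling, -0.0025 with no filter, -0.082 with exon length offsets and -0.054 to 0.035 with 1 library left out. Library-size scaling at 72 h turned Cd28 to -0.011, Icos to -0.025 and Tnfrsf1b to -0.090. The fit without both libraries gave 0.31 for Cd40lg and -0.024 for Tnfrsf1b at 72 h, and over time in ko cells 0.0011 for Icos and 0.027 for Cd44; offsets gave 0.024 for Icos. In the interaction Cd28 was 0.012 under median-ratio scaling and DESeq2 and 0.0036 with offsets, and library-size scaling gave -0.0083 for Tnfrsf9 and -0.0038 for Tnfrsf1b. With 1 library left out, ranges at 72 h were -0.041 to 0.0028 for Cd27, -0.94 to 0.31 for Cd40lg and -0.024 to 0.086 for Tnfrsf1b. Over time in ko cells they were -0.0697 to 0.026 for Cd44 and -0.080 to 0.031 for Icos. In the interaction they were -0.059 to 0.051 for Cd28, -0.30 to 0.95 for Cd40lg and -0.081 to 0.0073 for Tnfrsf4. Depth limits Cd70 and Cd40lg.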
